A study of Mus musculus with 4 samples.

Results

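The 43 genes described here encode the chaperones that fold and protect proteins in the cytosol of the cell, together with the small heat shock proteins and Hsf1, the transcription factor that switches many of these genes on. They were taken by gene name from the deposited tables, where each name matched 1 of 55382 gene rows. The study compared ribosome-protected mRNA fragments (footprints, the pieces of mRNA that a ribosome shields from nuclease) in mouse hearts collected at postnatal day 15. Each of the 2 groups held 2 libraries. The WT group carries library names of NAT10-FF, the floxed mice whose gene can be deleted by Cre recombinase, and the KO group is a conditional knockout of Nat10, the enzyme that places acetyl groups on cytidines of RNA. Neither the Cre line nor the promoter that drives it is named in the labels. The labels name cardiomyocytes as the cell type, but the material was about 100 mg of whole heart tissue, lysed with 100 μg/mL cycloheximide, which holds ribosomes in place. All 4 libraries carry 1 batch label. Whether the replicates of a group are separate animals is not stated in the labels, and a p-value here therefore reflects the scatter of these libraries alone, part or all of which could be technical.

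Chaperones bind proteins that are being made or have lost their shape and give them another chance to fold. Hsp70 proteins hold exposed stretches of a client in a cycle driven by ATP, J-domain proteins bring the client and start the ATP step, and Bag proteins release the nucleotide. Hsp90 works later on clients such as kinases and steroid receptors with a set of co-chaperones. The TRiC chaperonin is a barrel of related subunits that folds actin and tubulin, and small heat shock proteins hold unfolded proteins without ATP. Heart muscle keeps a large store of small heat shock proteins, and mutations of human CRYAB or BAG3 cause muscle disease.

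Heat shock factors bind DNA at inverted repeats of the letters GAA. The spaced pairs GAANNTTC and TTCNNGAA, where N is any base, were searched in RefSeq promoter windows of 300 bases from GRCm38.p6, which run from 250 bases before a gene's start to 50 after it. Each of these pairs is its own reverse complement, so both strands are covered, and the 2 forms may overlap. A pair was found in 18 of the 36 members in the promoter table. The most in 1 window were 5 for Chordc1 and 3 for Hsph1. The table lacks 7 members: Hspa8, Hsp90aa1, Hsp90ab1, Hspb2, Cryab, Cct4 and Hsf1. A pair was found in 17.0% of all 27025 genes in the table, and in 15.1% of its 32851 windows. A match describes the letters only.

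The upstream stretches of 4 members are shown because they hold such a pair and because these members lie at the ends of the values: Hspb1 had the highest footprint difference, Fkbp4 was lower in the KO libraries in each measure, and Hspa1a and Hspa1b, the classical inducible Hsp70 genes, had footprints under 1 FPKM in every library. Capitals mark the GAA and TTC letters of each pair, and each stretch ends at the base before the gene's start.
Hspb1: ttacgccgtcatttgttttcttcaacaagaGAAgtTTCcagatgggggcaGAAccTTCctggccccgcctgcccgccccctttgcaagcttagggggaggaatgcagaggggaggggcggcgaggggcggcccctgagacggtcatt
Hspa1a: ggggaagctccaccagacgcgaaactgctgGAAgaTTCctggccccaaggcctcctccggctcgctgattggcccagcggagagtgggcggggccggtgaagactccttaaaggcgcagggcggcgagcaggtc
Hspa1b: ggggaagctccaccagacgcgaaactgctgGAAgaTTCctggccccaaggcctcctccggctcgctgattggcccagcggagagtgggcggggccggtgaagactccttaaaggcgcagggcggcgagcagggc
Fkbp4: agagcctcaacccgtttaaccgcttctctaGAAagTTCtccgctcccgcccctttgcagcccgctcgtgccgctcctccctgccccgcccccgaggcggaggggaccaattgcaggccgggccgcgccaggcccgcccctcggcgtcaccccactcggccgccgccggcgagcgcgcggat
The Hspb1 stretch lies at chr5:135887772-135887918 on the plus strand and holds 2 pairs, which begin 117 and 97 bases before the start. The Hspa1a stretch lies at chr17:34972157-34972290 and the Hspa1b stretch at chr17:34959239-34959372, both on the minus strand, with 1 pair each that begins 104 bases before the start. Over 250 upstream bases the latter genes were identical at 247 positions (98.8%). The Fkbp4 stretch lies at chr6:128438657-128438837 on the minus strand, with its pair 151 bases before the start. Among members in the promoter table that were tested, a pair was found in 10 of 24 whose RNA level was higher in both KO libraries, in 3 of 4 whose RNA level was lower in both, and in 3 of 6 whose groups overlapped.

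Before the results, the state of the libraries is given briefly. The depth in reads is unknown, because FPKM (fragments scaled to gene length and to library size) keeps no total. The number of genes with any footprints ranged from 16425 to 16900 per library. Nat10 had footprint levels of 77.3 and 73.9 FPKM in the WT libraries and 40.01 and 52.1 FPKM in the KO libraries, lower in both KO libraries, with a log2 difference of -0.71 ± 0.30 (SE) and an adjusted p of 0.295. The targeted gene was thus lower in each KO library without passing the test, and the labels do not say which of its exons were floxed. Over all 15031 genes tested, the median log2 footprint difference between KO and WT was 0.36, and over the 12529 genes with an RNA level it was 0.22 for RNA and 0.15 for translation efficiency. Differences of the members are read against these shifts.

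Markers of some heart cell types differed between the groups. Summed footprints of 10 cardiomyocyte markers were 247784 and 294557 FPKM in WT and 162517 and 169374 FPKM in KO, and 9 of the 10 were lower in both KO libraries. Summed footprints of 8 fibroblast markers were 11294 and 8608 FPKM in WT and 27329 and 37665 FPKM in KO, and 7 of the 8 were higher in both. Summed footprints ran from 1701 to 1894 FPKM in WT and from 2272 to 3519 FPKM in KO for 8 endothelial markers, and from 429 to 678 FPKM in WT and from 616 to 1345 FPKM in KO for 8 macrophage markers. Footprints were higher in both KO libraries for 5 endothelial and 2 macrophage markers (39.5% of all genes), and the others overlapped. In RNA 2 endothelial markers were higher in both KO libraries, 1 was lower in both and 5 overlapped. Of the macrophage markers 6 were higher in RNA in both and 2 overlapped. For 8 smooth muscle and pericyte markers the sums were 5231 and 5268 FPKM in WT and 4852 and 4476 FPKM in KO. Most of these 8 went against their sum: 5 were higher in both KO libraries, 1 was lower in both, and the median log2 difference was 0.46. The test called 1 of the 8 higher. In RNA the cardiomyocyte sums were 30586 and 33810 FPKM in WT and 24220 and 19400 FPKM in KO, with 8 of the 10 markers lower in both KO libraries. The fibroblast sums were 655 and 895 FPKM in WT and 1762 and 1365 FPKM in KO. Of the 8 fibroblast markers, 4 were higher in RNA in both KO libraries and 2 were lower in both. No marker of these 5 lists was at 0 in any library. For 7 erythroid markers the sums were 1250 and 1028 FPKM in WT and 1497 and 726 FPKM in KO. Of 8 epicardial, glial and fat markers 6 were tested, and their sums were 33.6 and 27.5 FPKM in WT and 98.1 and 72.6 FPKM in KO, with the epicardial gene Upk3b at 0 in WT replicate 1. The untested fat genes Adipoq and Plin1 were at 0 in every library except KO replicate 1. Fewer cells of a type and less RNA per cell cannot be told apart in whole tissue, and the part of these markers in the chaperone values was not tested.

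In WT hearts the chaperones were among the strongly translated genes. The median member had a mean WT footprint level of 249 FPKM, against 25.4 FPKM for the 12529 genes that also have an RNA level. Cryab, the small heat shock protein alpha-B crystallin, was the highest with 5045 and 5475 FPKM in the WT libraries, followed by Hsp90ab1, the constitutive Hsp90, with 4714 and 3949 FPKM. The J-domain protein Dnaja2 came next with a WT mean of 1326 FPKM, followed by the TRiC subunit Cct6a with 1033 FPKM. The second measure, the RNA level, is not a deposited column. It was obtained by dividing the footprint level by the deposited translation efficiency (TE, the ratio of footprint to RNA level). The quotients had at most 6 significant digits, so they were taken as the level that the authors divided by. How that level was made is not stated. On this scale the median member had a WT mean of 44.9 FPKM against 7.95 FPKM for all genes, with Cryab (571 FPKM) highest and the cardiac small heat shock protein Hspb7 (395 FPKM) next. The constitutive Hsp70 Hspa8 followed with 371 FPKM.

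**Figure D1:**
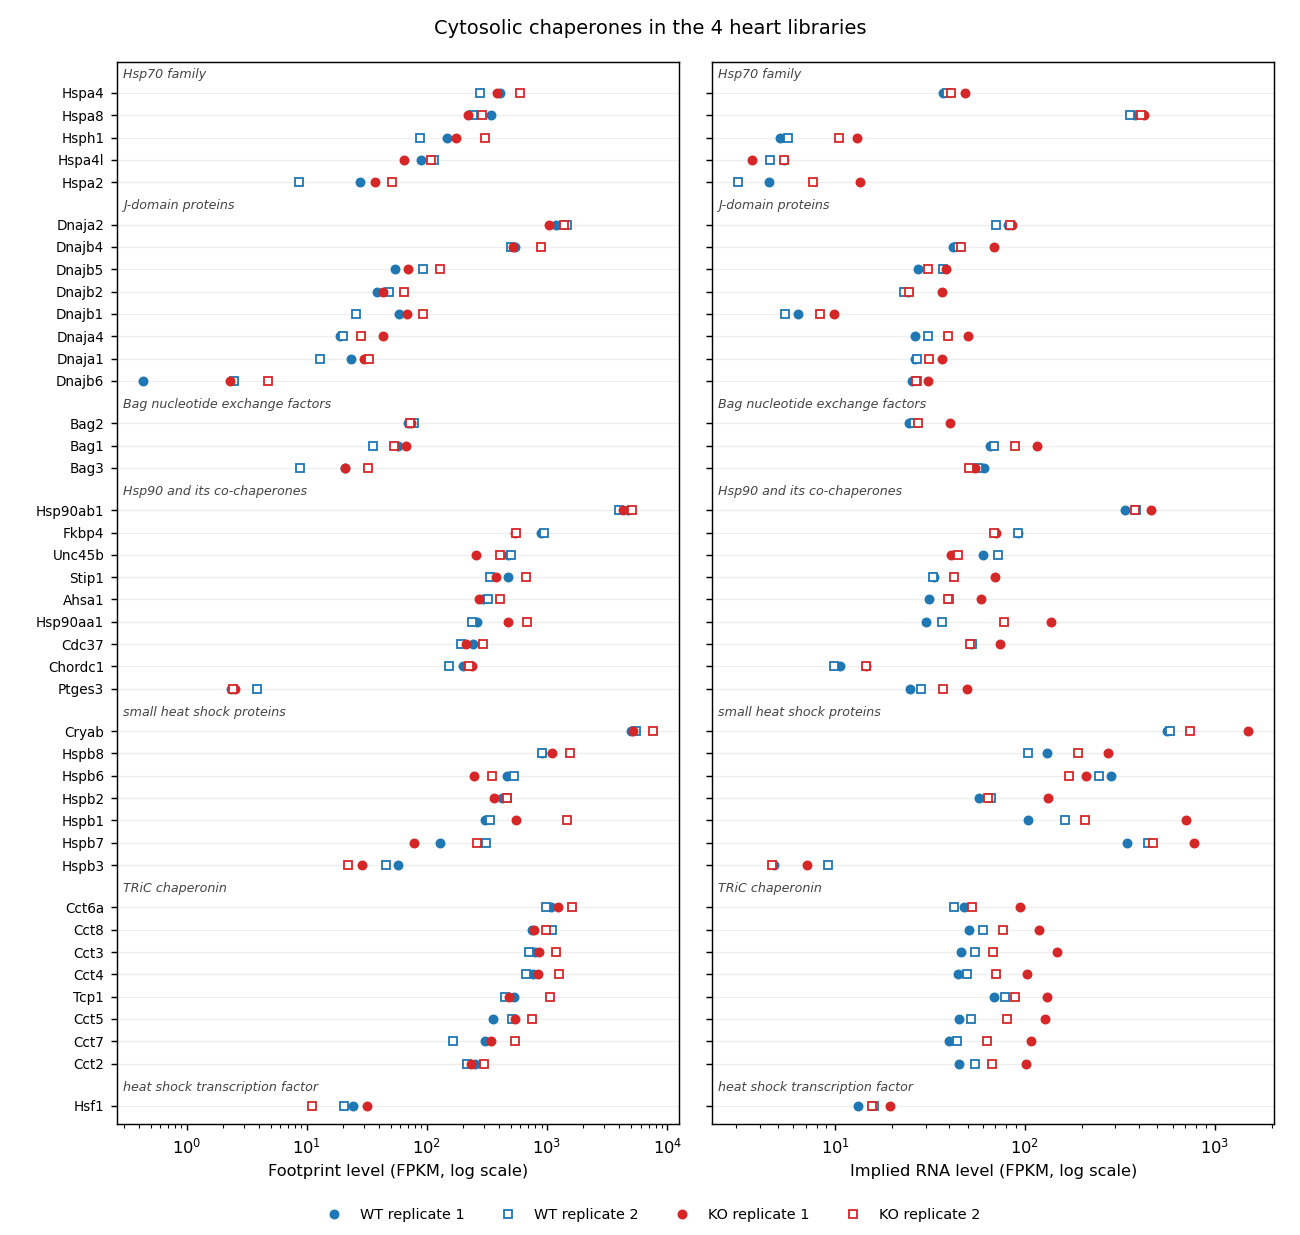
Footprint level (left) and RNA level (right) of the 41 tested members in FPKM on log axes, 1 point per library, grouped by role. Footprints span from 0.43 FPKM for Dnajb6 to 7636 FPKM for Cryab, and the KO replicate 1 point is the highest RNA value for 35 of the 41 members.

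Members with like RNA levels differed widely in TE. The median member had a WT TE of 7.19, against 3.84 for all genes. Cct6a stood highest with 22.7 and 23.3 in the WT libraries. Hsph1, an Hsp110 that acts as exchange factor for Hsp70, followed with 28.7 and 15.6, and its relative Hspa4l with 16.7 and 25.1. These 3 neighbours in the order do not differ beyond the spread of their libraries. At the other end stood Dnajb6, a J-domain protein that suppresses aggregation, with 0.017 and 0.092. Ptges3, the Hsp90 co-chaperone p23, had 0.093 and 0.14, and Bag3, which links Hsp70 to small heat shock proteins, had 0.34 and 0.16. Hspa8 combined the third highest RNA level of the members with a TE of only 0.90 and 0.68. Short footprints from genes with near-identical copies can be split or lost in counting, and how such reads were handled is not stated in the labels. The low TE of Hspa8, Ptges3 and Dnajb6 is therefore uncertain.

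**Figure D2:**
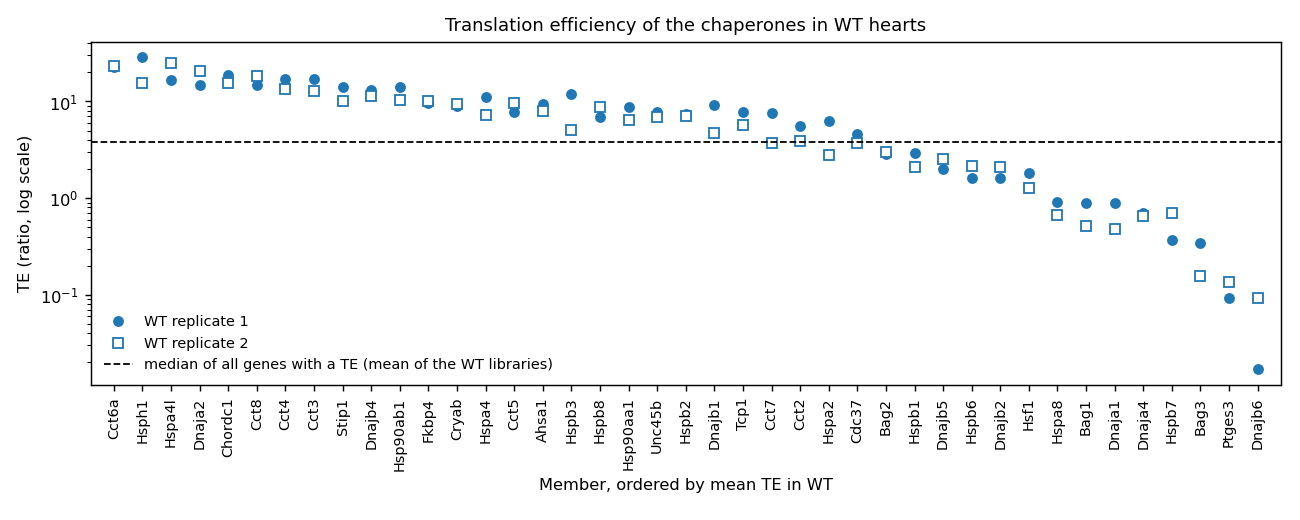
Translation efficiency (ratio of footprint to RNA level, log axis) of the 41 tested members in the 2 WT libraries, ordered by the WT mean, with a dashed line at the median of all genes (3.84). The TRiC subunits Cct6a, Cct8, Cct4, Cct3 and Cct5 lie above the member median, Tcp1, Cct7 and Cct2 below it, and Dnajb6, Ptges3 and Bag3 at the lower end.

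In KO hearts the RNA level of 2 chaperones rose, Hsp90aa1 and Hsph1, and none fell. No member passed the test for footprints or for TE. Of 41 members, 2 were called in RNA (4.88%), close to the 5.73% of all tested genes, of which 4.20% were called higher. More members had an RNA level higher in both KO libraries than in both WT libraries, 28 of 41 (68.3%), where 44.2% of all genes did. Another 4 members (9.76%) were lower in both, against 18.6% of all genes. The median log2 RNA difference of the members was 0.55, or 0.33 above that of all genes. Above 0 were 35 of 41, against 8090 of 12529 genes in all. After scaling the libraries to a common median ratio, 31 of 41 were above 0, against 6309 of all genes. Without KO replicate 1 the median was 0.24, only 0.04 above that of all genes.

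Hsp90aa1, the inducible Hsp90 (Ensembl ENSMUSG00000021270, chr12:110691036-110696395), had RNA levels of 30.2 and 36.6 FPKM in WT and 137 and 77.8 FPKM in KO. Both KO values stood above both WT values, and KO replicate 1 was the highest. The log2 difference was 1.63 ± 0.30 (SE, 2 libraries per group), a 3.10-fold rise, with an adjusted p of 0.039 by limma. Its footprints were 263 and 236 FPKM in WT and 470 and 675 FPKM in KO, again without overlap, with a log2 difference of 1.18 ± 0.26 and an adjusted p of 0.157, the lowest of any member for footprints. TE of Hsp90aa1 was 8.69 and 6.44 in WT, against 3.43 and 8.68 in KO, so that the groups overlapped. The constitutive partner Hsp90ab1 showed no such separation. Its RNA was 337 and 385 FPKM in WT and 462 and 381 FPKM in KO, and its footprints were 4714 and 3949 FPKM against 4275 and 5084 FPKM.

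Hsph1 (ENSMUSG00000029657, chr5:149616843-149636498) had RNA levels of 5.13 and 5.63 FPKM in WT and 13.0 and 10.5 FPKM in KO. The groups were well separated, with a log2 difference of 1.12 ± 0.24 and an adjusted p of 0.0487 (2.17-fold). This call lies at the threshold and was lost under median-ratio scaling (adjusted p 0.0648), without the variance trend (0.0824) and without KO replicate 1 or either WT replicate (0.0703 to 0.185). Its footprints were 147 and 88.0 FPKM in WT and 174 and 306 FPKM in KO, which did not overlap and did not pass the test (log2 difference 1.01 ± 0.39, adjusted p 0.277). The Hsp90aa1 call held without each library in turn and was lost without the variance trend (adjusted p 0.0815).

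For footprints 0 of 41 members were called by limma, where 0.379% of all genes were. An unadjusted p under 0.05 was found for 6 members (14.6%), against 17.3% of all genes. The footprints of 15 members were higher in both KO libraries (36.6%, against 39.5% of all genes). Those of 4 members, Fkbp4, Hspb3, Hspb6 and Unc45b, were lower in both (9.76%, against 12.1%). The median log2 footprint difference of the members was 0.39, only 0.03 above that of all genes. Of the 41 members, 28 were above 0 and 21 after median-ratio scaling, against 10693 and 7802 of all 15031 genes. Without KO replicate 2 the median was 0.00080, a difference of -0.25 from that of all genes. As a list, footprints of the chaperones thus lay near the middle of all genes, with members at both ends.

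For TE no gene was called (0.00% of 12529; lowest adjusted p 0.0686), while 759 genes and 0 of the 41 members had an unadjusted p under 0.05. The lowest adjusted p of a member for TE was 0.846. TE was lower in both KO libraries for 5 members (12.2%, against 12.0% of all genes), Bag2, Cct8, Fkbp4, Hspb3 and Ptges3. It was higher in both for 2 members (4.88%, against 24.0% of all genes), Bag3 and Dnaja4. The median log2 TE difference of the members was -0.20, a difference of -0.34 from that of all genes. Above 0 were 10 of 41 members, against 7458 of 12529 genes in all. The negative sign of the median rested on KO replicate 1: without that library it was 0.21, and relative to all genes -0.12. In 27 members a positive RNA difference stood beside a negative TE difference, and the share of all genes with both was not counted. Since the RNA level is the denominator of TE, an error in it moves these values in opposite directions. The part of such errors here was not tested.

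**Figure D3:**
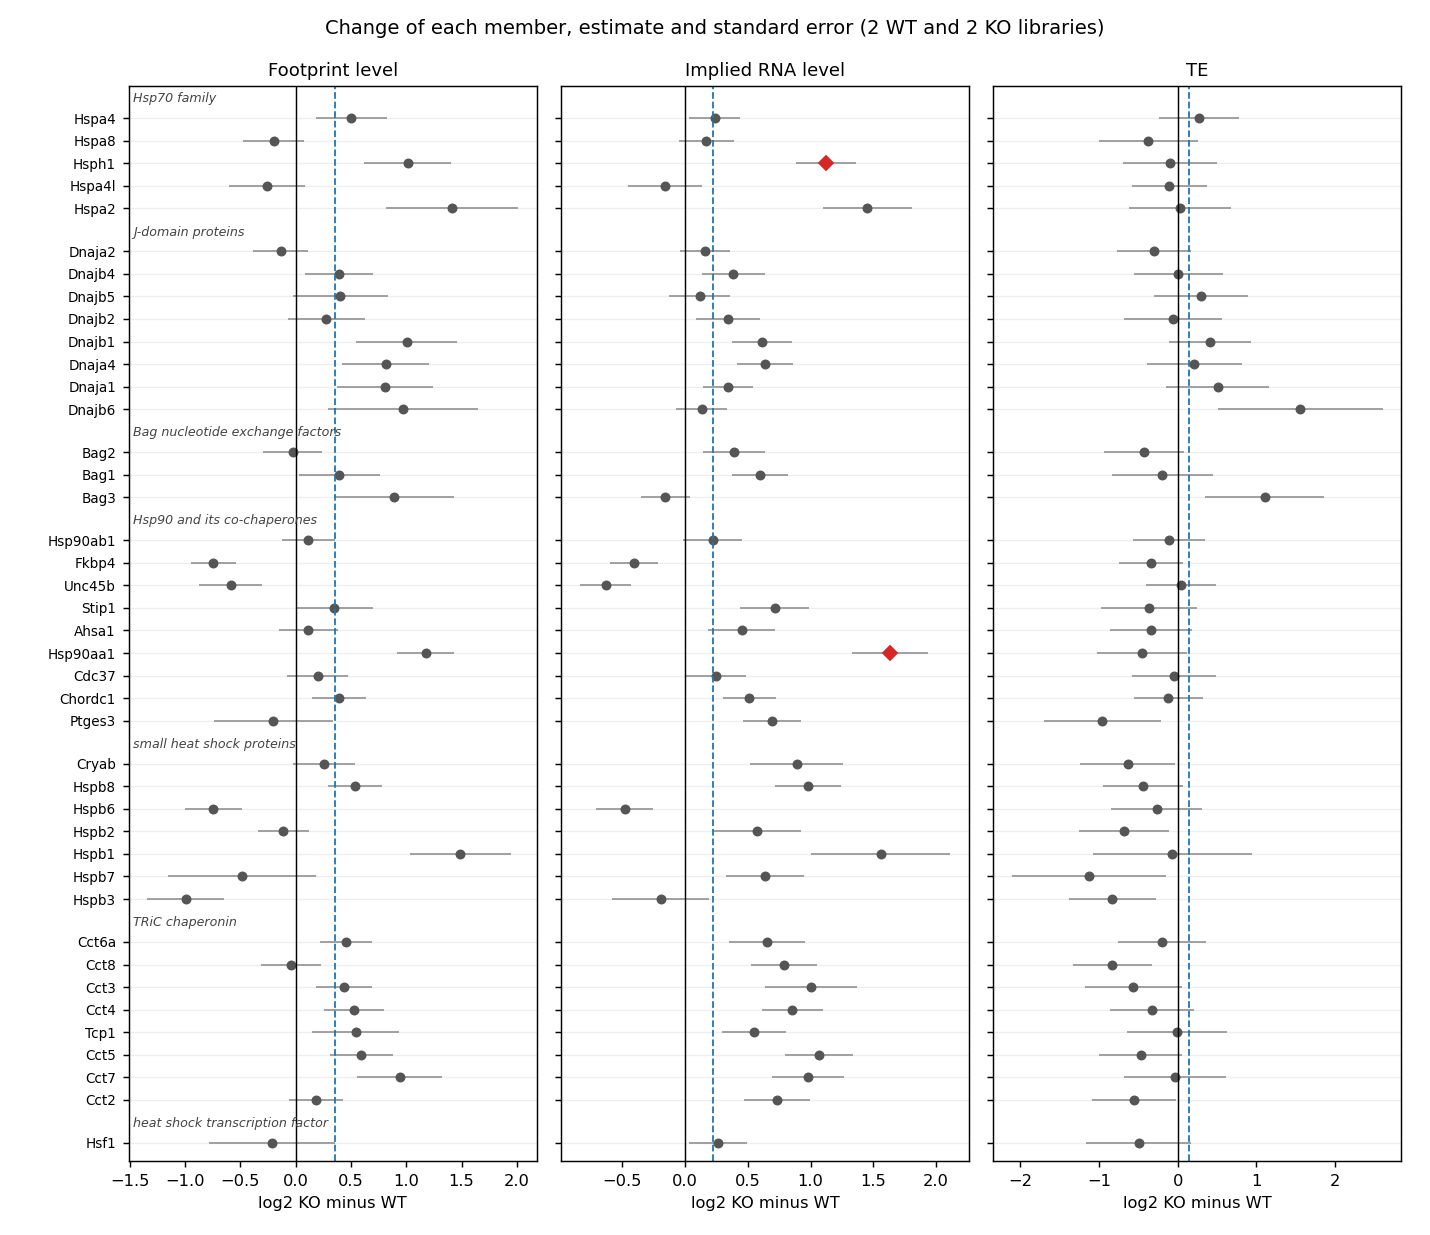
Log2 difference between KO and WT for each tested member in footprints, RNA level and TE (3 panels), as the fitted estimate with its standard error from 2 libraries per group; the line marks the median of all tested genes. Hsp90aa1 and Hsph1 passed the test in RNA, no member passed it in the other panels, and most TE estimates lie left of the all-gene median.

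The 2 KO libraries did not behave alike for these genes. RNA levels were higher in KO replicate 1 than in KO replicate 2 for 39 of 41 members, with a median ratio of 1.44, while over all genes the median ratio was 1.04. KO replicate 1 was the highest of the 4 libraries in RNA for 35 members (85.4%, against 44.1% of all genes). Footprints ran the other way: KO replicate 1 was above KO replicate 2 in 7 of 41 members (17.1%), with a median ratio of 0.71, and in 34.4% of all genes, with a median ratio of 0.83. KO replicate 2 was the highest of the 4 libraries for 25 (61.0%, against 49.1%). TE was lowest in KO replicate 1 for 31 members (75.6%, against 33.7%). The pattern was not particular to the members. RNA was higher in KO replicate 1 than in KO replicate 2 for 15 of 16 endoplasmic reticulum chaperones (median ratio 1.39). The same held for 40 of 52 other cytosolic chaperones (1.35), where 53.8% of all genes were higher in KO replicate 1. The 13 mitochondrial chaperones lay near all genes, with 8 higher in KO replicate 1 (61.5%) and a median ratio of 1.06. TE was higher in KO replicate 1 for 0 of 16, 6 of 52 and 2 of 13 of these lists, beside 3 of 41 members and 33.6% of all genes. Summed over the 41 members, RNA was 3402 and 3643 FPKM in WT, 6617 FPKM in KO replicate 1 and 4123 FPKM in KO replicate 2. Summed footprints were 22805 and 22517 FPKM in WT, 22368 FPKM in KO replicate 1 and 31930 FPKM in KO replicate 2. Without KO replicate 1 only 1 member was called in RNA. Without KO replicate 2 the median RNA difference was 0.74, or 0.48 above all genes, and 25 members and 3742 genes in all were called. Over the 6 erythroid markers tested for RNA, levels summed to 1327 FPKM in KO replicate 1 and 656 FPKM in KO replicate 2 beside 635 and 959 FPKM in WT, and the part of the difference between these libraries in the chaperone values was not tested.

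Among the Hsp70 proteins, 5 of 7 members passed the filter. Hspa4, another Hsp110 exchange factor and the most translated of them, had footprints of 408 and 278 FPKM in WT and 381 and 599 FPKM in KO, which overlapped. Hspa2, best known for its role in sperm development, had 27.8 and 8.57 FPKM in WT and 36.8 and 50.8 FPKM in KO (log2 difference 1.41 ± 0.60, adjusted p 0.297). Its RNA was 4.47 and 3.07 FPKM in WT and 13.5 and 7.62 FPKM in KO, without overlap and just short of the threshold (log2 difference 1.45 ± 0.36, adjusted p 0.0627). Hspa8 kept to a narrow range, with RNA of 382 and 360 FPKM in WT and 424 and 410 FPKM in KO, a log2 difference of 0.17 ± 0.22. Hspa4l overlapped between the groups in both measures, with log2 differences of -0.26 ± 0.35 for footprints and -0.16 ± 0.30 for RNA.

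The inducible genes Hspa1a and Hspa1b did not reach 1 FPKM in any library and were not tested. Hspa1a was listed at 0 and 0.30 FPKM in WT and at 0.20 and 0.39 FPKM in KO. Hspa1b was listed at 0 in both WT libraries and at 0.69 and 0.38 FPKM in KO. Their RNA level in KO was 2.29 and 1.12 FPKM for Hspa1a and 2.84 and 1.22 FPKM for Hspa1b, and a TE of 0 in WT leaves no RNA value there except 0.71 FPKM for Hspa1a in WT replicate 2. Reads of these nearly identical genes can be exchanged in counting, so their separate values are uncertain.

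The 8 J-domain proteins had a median log2 difference of 0.61 for footprints, where all genes had 0.36, and of 0.34 for RNA, where all genes had 0.22. In RNA 6 of 8 were higher in both KO libraries, as were 44.2% of all genes, and none was called. Dnaja2, the most translated, had 1192 and 1461 FPKM in WT and 1033 and 1395 FPKM in KO. Dnajb1, the stress-inducible partner of Hsp70, had footprints of 59.0 and 25.8 FPKM in WT and 68.2 and 92.4 FPKM in KO, a log2 difference of 1.00 ± 0.46 with an adjusted p of 0.325. Its RNA was 6.40 and 5.46 FPKM in WT and 9.81 and 8.31 FPKM in KO, also without overlap (adjusted p 0.159). Dnaja1 had footprints of 23.4 and 12.8 FPKM in WT and 29.7 and 32.8 FPKM in KO. Dnaja4 was the 1 member higher in both KO libraries in all 3 measures, with footprints of 18.7 and 20.1 FPKM in WT and 42.98 and 28.2 FPKM in KO (log2 difference 0.81 ± 0.39, adjusted p 0.343) and TE of 0.71 and 0.65 against 0.85 and 0.72. The remaining Dnajb2, Dnajb4, Dnajb5 and Dnajb6 overlapped between the groups in footprints.

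The 3 Bag proteins went separate ways. Bag2, an inhibitor of the ubiquitin ligase Chip, had nearly constant footprints of 69.6 and 78.5 FPKM in WT and 73.0 and 71.9 FPKM in KO. Its RNA was 24.4 and 26.2 FPKM in WT and 40.1 and 27.4 FPKM in KO, and its TE was lower in both KO libraries. Bag3 had footprints of 20.6 and 8.76 FPKM in WT and 20.7 and 32.4 FPKM in KO, so that the groups barely separated (log2 difference 0.89 ± 0.54, adjusted p 0.427). Its RNA was 60.9 and 56.5 FPKM in WT and 54.5 and 50.8 FPKM in KO, lower in both KO libraries. Bag3 was the only member apart in RNA and footprints in opposite directions, and TE stood at 0.34 and 0.16 in WT against 0.38 and 0.64 in KO. None of these differences passed the test. Bag1 had a log2 difference of 0.40 in footprints and 0.60 in RNA, with RNA higher in both KO libraries.

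Of the 9 members around Hsp90, apart from Hsp90aa1, none was called. Fkbp4 (FKBP52, ENSMUSG00000030357, chr6:128430103-128438656), an immunophilin that joins Hsp90 to steroid receptors, had footprints of 896 and 939 FPKM in WT and 545 and 550 FPKM in KO. Replicates of each group were close together and the groups far apart, with a log2 difference of -0.74 ± 0.20 (1.67-fold lower) and an adjusted p of 0.192. Its RNA was 92.3 and 92.1 FPKM in WT and 70.3 and 68.8 FPKM in KO (log2 difference -0.41 ± 0.19, adjusted p 0.216), and TE stood at 9.71 and 10.2 in WT against 7.75 and 7.999 in KO. It was the 1 member lower in both KO libraries in all 3 measures, and none of the 3 passed the test. Unc45b, the muscle chaperone that folds myosin with Hsp90, had footprints of 469 and 497 FPKM in WT and 254 and 405 FPKM in KO (log2 difference -0.59 ± 0.28, adjusted p 0.345). Its RNA was 60.3 and 72.3 FPKM in WT and 40.8 and 44.4 FPKM in KO (log2 difference -0.63 ± 0.21, adjusted p 0.112), with TE overlapping. As given above, cardiomyocyte markers were lower in the same libraries, and whether this has a part in the values of Fkbp4 or Unc45b was not tested.

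The other co-chaperones of Hsp90 had small footprint differences. Stip1, the adaptor that passes clients from Hsp70 to Hsp90, had 470 and 332 FPKM in WT and 378 and 671 FPKM in KO, and its RNA was 33.2 and 32.6 FPKM in WT and 69.2 and 42.2 FPKM in KO. Ahsa1, the activator of the Hsp90 ATPase, and Cdc37, the adaptor for kinases, had log2 footprint differences of 0.11 and 0.20, and their groups overlapped in all measures. Chordc1, a co-chaperone that binds zinc, had footprints of 201 and 154 FPKM in WT and 236 and 225 FPKM in KO, higher in both KO libraries. Ptges3 had low footprints of 2.32 and 3.87 FPKM in WT and 2.54 and 2.45 FPKM in KO beside RNA of 24.8 and 28.5 FPKM in WT and 49.6 and 37.2 FPKM in KO.

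Of the 7 small heat shock proteins, footprints were higher in both KO libraries for 2 (39.5% of all genes), lower in both for 2 (12.1% of all genes) and overlapping for 3, with none called. Hspb1 (Hsp25, the mouse counterpart of human HSP27, ENSMUSG00000004951, chr5:135887919-135889563) had footprints of 303 and 337 FPKM in WT and 553 and 1454 FPKM in KO. The KO libraries were far apart from each other, and the log2 difference of 1.49 ± 0.46 (2.80-fold) had an adjusted p of 0.223. Its RNA was 104 and 162 FPKM in WT and 708 and 207 FPKM in KO, where KO replicate 1 and not KO replicate 2 held the high value (log2 difference 1.56 ± 0.56, adjusted p 0.132). TE of Hspb1 accordingly ran from 0.78 in KO replicate 1 to 7.02 in KO replicate 2, with 2.91 and 2.07 in WT. Cryab had footprints of 5045 and 5475 FPKM in WT and 5166 and 7636 FPKM in KO, which overlapped, and RNA of 559 and 583 FPKM in WT and 1508 and 739 FPKM in KO, which did not (log2 difference 0.89 ± 0.37, adjusted p 0.175). Hspb8, the partner of Bag3, read higher in both measures, at 0.54 for footprints and 0.98 for RNA on the log2 scale, with an adjusted p of 0.075 for RNA.

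Footprints of Hspb3 and Hspb6 were lower in both KO libraries without passing the test. Hspb3, a small heat shock protein of muscle, had 57.6 and 46.0 FPKM in WT and 29.0 and 22.1 FPKM in KO, a log2 difference of -0.99 ± 0.35 with an adjusted p of 0.250. Its RNA overlapped between the groups, at 4.77 and 9.13 FPKM in WT and 7.14 and 4.66 FPKM in KO. Hspb6, known as Hsp20, had footprints of 464 and 527 FPKM in WT and 248 and 350 FPKM in KO (log2 difference -0.74 ± 0.26, adjusted p 0.246), and its RNA was also lower in both KO libraries, at 284 and 246 FPKM in WT against 210 and 171 FPKM. The cardiac Hspb7 had widely spread footprints of 128 and 310 FPKM in WT and 77.3 and 262 FPKM in KO. Its RNA was higher in both KO libraries, at 347 and 443 FPKM in WT against 783 and 474 FPKM (limma adjusted p 0.233). Hspb2 overlapped in both measures. It lies within the RefSeq span of Cryab (Hspb2 at chr9:50751072-50752354, Cryab at chr9:50745951-50756636), and without a stated strand setting reads of these genes may not be fully separated. All 7 small heat shock proteins had a log2 TE difference below 0, as did 5071 of 12529 genes in all. Their median was -0.63, and none passed the test. Their TE in KO replicate 1 was between 0.11 and 0.85 times that in KO replicate 2.

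All 8 subunits of the TRiC chaperonin had an RNA level higher in both KO libraries than in both WT libraries, as did 44.2% of all genes, with log2 differences from 0.55 to 1.07 and a median of 0.82 where all genes had 0.22. After median-ratio scaling all 8 differences were still above 0, with a median of 0.60. Without KO replicate 1 the median was 0.46, and without KO replicate 2 it was 1.11. None of the 8 passed the test, and the adjusted p ran from 0.0679 to 0.209. Cct5 was the nearest, with 44.9 and 52.1 FPKM in WT and 128 and 80.3 FPKM in KO. Cct7 had 39.8 and 44.1 FPKM in WT and 108 and 63.2 FPKM in KO, Cct4 had 44.6 and 49.8 FPKM against 103 and 70.6 FPKM, and Cct6a had 47.6 and 42.2 FPKM against 94.2 and 52.9 FPKM. Summed over the 8 subunits, RNA was 387 and 436 FPKM in WT and 930 and 568 FPKM in KO.

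Footprints of TRiC read highest in KO replicate 2, with sums of 4821 and 4783 FPKM in WT, 5304 FPKM in KO replicate 1 and 7710 FPKM in KO replicate 2. The 5 subunits Cct3, Cct4, Cct5, Cct6a and Cct7 were higher in both KO libraries, as were 39.5% of all genes. Cct7 had 303 and 164 FPKM in WT and 340 and 541 FPKM in KO, the largest footprint difference of the group (log2 0.94 ± 0.38, adjusted p 0.290). Cct5 had 353 and 506 FPKM against 541 and 754 FPKM, Cct4 had 762 and 665 FPKM against 833 and 1261 FPKM, and Cct6a had 1079 and 986 FPKM against 1237 and 1618 FPKM. TE had a log2 difference below 0 for all 8, with a median of -0.40, where 5071 of all 12529 genes were below 0. It was between 0.31 and 0.52 times as high in KO replicate 1 as in KO replicate 2. Without KO replicate 1 the median TE difference was 0.24. Only Cct8 had a TE lower in both KO libraries, at 14.7 and 18.3 in WT and 6.63 and 12.8 in KO.

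**Figure D4:**
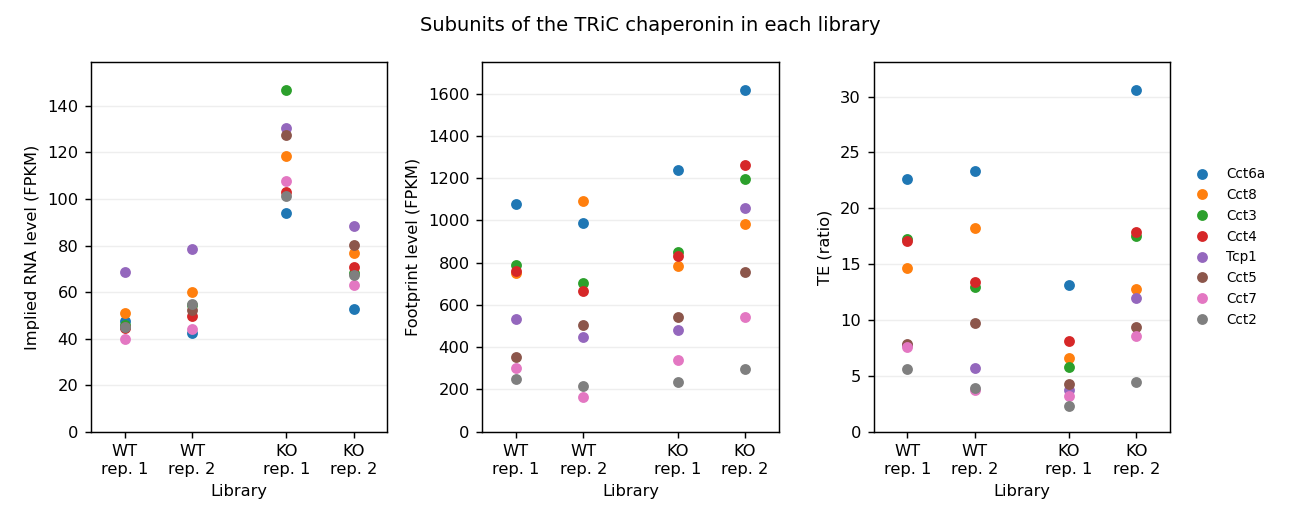
RNA level (FPKM), footprint level (FPKM) and TE (ratio) of the 8 TRiC subunits in each of the 4 libraries, 1 colour per subunit, on linear axes from 0. RNA is highest in KO replicate 1 for all 8, at 94.2 to 147 FPKM against 39.8 to 78.4 FPKM in the WT libraries, while TE is low in KO replicate 1.

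Hsf1, which binds the GAA repeats shown above, had footprints of 24.1 and 20.3 FPKM in WT and 31.9 and 11.1 FPKM in KO, with the KO libraries on either side of the WT libraries. Its RNA was 13.1 and 16.1 FPKM in WT and 19.4 and 15.7 FPKM in KO. Neither separated the groups. Of 10 listed heat shock factors and their regulators, 8 were tested and none was called in any measure. Of the 8, 6 had an RNA difference below 0, with a median log2 of -0.098 and a lowest of -0.62. Akt1, a kinase that acts on Hsf1, had the largest RNA rise of the list (log2 0.49). Its RNA was 69.1 and 96.5 FPKM in WT and 121 and 108 FPKM in KO (adjusted p 0.230).

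Chaperones outside the 43 genes give the setting. Of 54 other cytosolic chaperones and co-chaperones, 53 were tested for footprints with 0 called, and 52 for RNA with 1 called. That gene was Dnajc2, a J-domain protein bound to the ribosome near the exit of the nascent chain. Its RNA rose from 5.35 and 5.97 FPKM in WT to 19.7 and 13.7 FPKM in KO (log2 difference 1.54, adjusted p 0.0333). The median log2 differences of this list were 0.29 for footprints, 0.45 for RNA and -0.08 for TE. RNA was higher in both KO libraries for 32 of the 52, as for 44.2% of all genes. Naca, the alpha chain of the nascent polypeptide complex, stood at the low end of footprints with 58.1 and 54.6 FPKM in WT and 25.3 and 30.03 FPKM in KO. Ruvbl2, an ATPase of the R2TP complex, stood at the high end with 17.3 and 8.57 FPKM against 41.5 and 46.8 FPKM. Fkbp5, a relative of Fkbp4, had 11.5 and 25.4 FPKM in WT and 14.6 and 162 FPKM in KO, where 1 library held the whole footprint difference. Its RNA was higher in both KO libraries, at 1.92 and 3.44 FPKM in WT and 6.78 and 5.39 FPKM in KO (log2 difference 1.23, adjusted p 0.0854 by limma).

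Chaperones of other compartments were measured for the same contrast. The 16 endoplasmic reticulum chaperones had median log2 differences of 0.40 for footprints and 0.57 for RNA, with 0 called. Both KO libraries were higher for 11 of the 16 in footprints (39.5% of all genes) and for 12 in RNA (44.2% of all genes). P4hb, a protein disulfide isomerase, had footprints of 66.1 and 51.7 FPKM in WT and 160 and 216 FPKM in KO (adjusted p 0.121). Hspa5, the Hsp70 of that compartment, had 2256 and 2472 FPKM against 2031 and 2376 FPKM. The 13 mitochondrial chaperones had medians of -0.30 for footprints, 0.18 for RNA and -0.53 for TE, with 0 called, and 8 of the 13 were lower in both KO libraries in footprints, where 12.1% of all genes were. Clpx, the unfoldase of the mitochondrial Clp protease, had 277 and 374 FPKM in WT and 146 and 141 FPKM in KO (adjusted p 0.155). Whether these lists differ from the 43 genes was not tested.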

How the data were processed

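Ribosome footprints of 4 mouse heart libraries (2 WT, 2 KO) were read from the deposited tables. The authors deposited footprint levels in FPKM per Ensembl gene, and a translation efficiency as a linear ratio. The submitters' processing notes name the aligners STAR 2.7.4a and Bowtie 1.3.1, the counting tools Cufflinks 2.2.1 and HTSeq 0.13.5, cutadapt 3.7 and FastQC 0.11.9, and the build GRCm38 (mm10). The labels do not state the order of the steps, their settings, a read-length filter, the strand handling, or how the RNA level in the ratio was made. FPKM divided by the ratio gave numbers of at most 6 significant digits in 59296 of 59296 cases (relative tolerance 1e-10), and this quotient was used as the RNA level. Between 1516 and 1987 genes per library had a ratio of 0 beside a footprint level above 0, and these have no RNA level.

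Genes with at least 1 FPKM in at least 2 libraries were tested with limma 3.58.1 in R 4.3.3 on log2(FPKM + 1). This scale understates the differences of low genes. RNA level and TE were tested on log2 without a pseudocount, for genes above 0 in all 4 libraries. P-values were adjusted over all tested genes by Benjamini-Hochberg at 0.05, and the spread was moderated with a mean-variance trend. Fold values are powers of 2 of the fitted difference. An exact permutation test of 2 against 2 libraries cannot go below 0.333 (two-sided), so none was used. The number of libraries limits the precision. The fits were tested on simulated data. Alternatives were other pseudocounts and filters, median-ratio scaling, no trend, small RNA genes left out, a replicate block and each library left out.

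Members and gene lists were chosen with earlier results of these data known. Genes given in every library were those past the threshold in any measure, the most translated of each role, and up to 3 per role with the largest footprint difference among those whose groups did not overlap. From other lists, genes past the threshold or at the ends of the footprint differences among those with a mean of at least 5 FPKM were named. Akt1 was named outside this rule, for its RNA rise. Values of other members were added to complete each role. Promoter sequences and gene positions are from RefSeq, GRCm38.p6. The separate values of a marker gene are not reported here.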

Additional observations from a re-analysis of the deposited data

How the results depend on the processing

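Median-ratio scaling took the median log2 footprint difference of the members to 0.017, and leaving out a library gave 0.00080 (without KO replicate 2) to 0.54. Relative to all genes it ran from -0.25 (without KO replicate 2) to 0.031 when a library was left out, and without WT replicate 1 it was -0.10. No setting called a member in footprints or TE. In RNA 2 members were called as reported, 1 with median-ratio scaling, 0 without the variance trend, and 1 (without KO replicate 1) to 25 (without KO replicate 2) when a library was left out. The median RNA difference then ran from 0.24 to 0.74, and relative to all genes from 0.045 to 0.48. For TE it ran from -0.66 to 0.21 (without KO replicate 1). The cause was not tested. Over all genes, footprint calls numbered 57 as reported, 0 with any library left out and 221 without small RNA genes and gene models, and RNA calls 718 as reported, 67 without the trend and 3742 without KO replicate 2.

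Deviations of same-numbered libraries correlated at -0.06 for footprints, -0.22 for RNA and -0.02 for TE. With the replicate block 4 members and 1429 genes were called in RNA, and 0 members in footprints or TE (143 and 178 genes). A block with crossed replicate numbers, chosen after seeing the data, called 18 members and 3241 genes in RNA. The numbers are not known to pair the libraries, so no pairing is read from these counts.

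Direction reversed under median-ratio scaling for 7 members in footprints, Hsp90ab1 (-0.26), Cryab (-0.12), Dnajb2 (-0.094), Stip1 (-0.027), Ahsa1 (-0.26), Cct2 (-0.19) and Cdc37 (-0.18), for 4 in RNA, Hspa8 (-0.047), Dnaja2 (-0.056), Dnajb5 (-0.10) and Dnajb6 (-0.085), and for 3 in TE, Hspa2 (-0.12), Dnajb4 (-0.14) and Unc45b (-0.10). Among members given in every library by the rule, footprint differences crossed 0 when a library was left out for Hsp90ab1 (-0.016 to 0.24), Cryab (-0.025 to 0.54), Dnaja2 (-0.35 to 0.081), Hsf1 (-0.93 to 0.51) and Bag2 (-0.11 to 0.058), and RNA for Hspb3 (-0.66 to 0.27). A fit that leaves out a library assumes that the lone one of its group varies like the other group. Over all results and alternatives, 661 of 714 values were counted as the same. These kept direction and side of the threshold, stayed within the spread of the libraries or, for counts of calls, were equal or close. Most members passed no threshold in the main fit, so this count does not measure how firm the RNA calls are. The median-ratio scaling takes the all-gene medians close to 0 (0.03 for footprints, 0.01 for RNA).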
